A study of Arabidopsis thaliana with 27 samples.

Results

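Of 13356 genes with a named probe set in this series, 6 were chosen: AT3G12910, STZ, AT1G51850, PUB24, AT3G02840 and AT1G19020. Their transcript levels in Arabidopsis leaves were higher after 3 h of ozone than after 3 h of clean air. The genes were picked by name because their ozone arrays stood above their clean-air arrays at 3 h in wild type, in the mutant or in both. The levels of the 6 at 3 h are therefore given as a description with no test, and tests for them compare the 2 d groups only. These tests are not free of the choice, since their results were known when the genes were proposed. Their spread was also fitted over the arrays of both times. The 3 h arrays that chose the genes thus enter each standard error, interval and p-value at 2 d. Each gene had 1 probe set.

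Leaf RNA was measured on 27 Affymetrix ATH1 arrays in 8 groups. Wild-type plants were Columbia (Col-0), and the mutant was gpa1-4/agb1-2, a double null in which GPA1 and AGB1, the G-protein alpha and beta subunit genes, are lost in every cell. Plants aged 4 to 5 weeks stood in 4 chambers in clean air at 5 ppb ozone or in 125 ppb ozone for 7 h a day, and mid-whorl leaves were frozen after 3 h or 2 d. Each group held 3 arrays at 3 h. Each 2 d group held 4, except the mutant in clean air with 3. The labels call the replicates biological without saying how many plants went into an array, so the p-values measure the spread between these arrays. Chamber is not tied to arrays there and was not tested.

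Ozone enters leaves through the stomata and breaks down into reactive oxygen species in the cell wall space. Cells answer within minutes to hours through calcium, kinase cascades and transcription factors, a response that overlaps with the one to microbes and wounding. Among the 6 genes, STZ (also ZAT10) encodes a C2H2 zinc-finger factor that represses transcription and is known from salt, drought, high light and oxidative stress. AT3G12910 encodes a NAC-domain protein, of a plant family of transcription factors. AT1G51850 encodes a leucine-rich repeat receptor kinase, a class of membrane proteins that sense signals outside the cell. PUB24 is a U-box ubiquitin ligase that, with its relatives PUB22 and PUB23, dampens immune signalling. AT3G02840 encodes a protein with armadillo repeats, and AT1G19020 a small protein whose biochemical role is not established.

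The deposited values are linear intensities, with array medians of 153.5 to 182. A level below is such an intensity, and means and differences are of log2(intensity + 1). The added 1 shrinks log2 changes of dim genes. Low values can also scatter widely between replicates, so the size of such changes is rough in both directions. Correlations between replicates lay at 0.916 to 0.965 over all probe sets. No G-protein gene of the 9 listed had a probe set named as 1 gene, so the genotype could not be checked in its targets. Of the tissue markers, RCA, the Rubisco activase gene of green tissue, had group means of 14.01 to 14.67, while the pollen gene AT3G07820 stayed at 1.76 to 2.85. The guard cell factor gene FMA had means of 7.05 to 7.64. The root gene EXPA7 had means of 4.03 to 4.63 in 7 groups and 6.02 in wild-type ozone at 3 h, where its arrays stood above those of clean air; the difference of 1.38 did not pass, and its part in the results was not tested. These were the measured ones of 19 mesophyll, 7 flower and pollen, 6 root and 5 guard cell markers, and 0 of 6 phloem and 0 of 7 epidermis and trichome markers had such a probe set. In RNA from whole leaves, fewer cells of a type and less RNA per cell cannot be told apart.

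After 3 h all 6 genes stood higher in ozone than in clean air in both genotypes, with no overlap between the arrays. The difference of group means ran from 1.65 for PUB24 to 4.76 for AT1G19020 in wild type and from 1.75 to 4.35, for the same 2 genes, in the mutant. Medians over the 6 were 3.57 (wild type) and 3.55 (mutant), against medians of −0.01 and −0.04 over all 22746 probe sets. Higher arrays without overlap were found for 9.43% of all probe sets in wild type and 8.83% in the mutant, and nothing is read from the 6 of 6 here because the genes were chosen by this contrast. After 2 d none of the 6 passed the threshold for ozone against clean air in either genotype, and the clean-air level of most was itself higher than at 3 h.

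**Figure D1:**
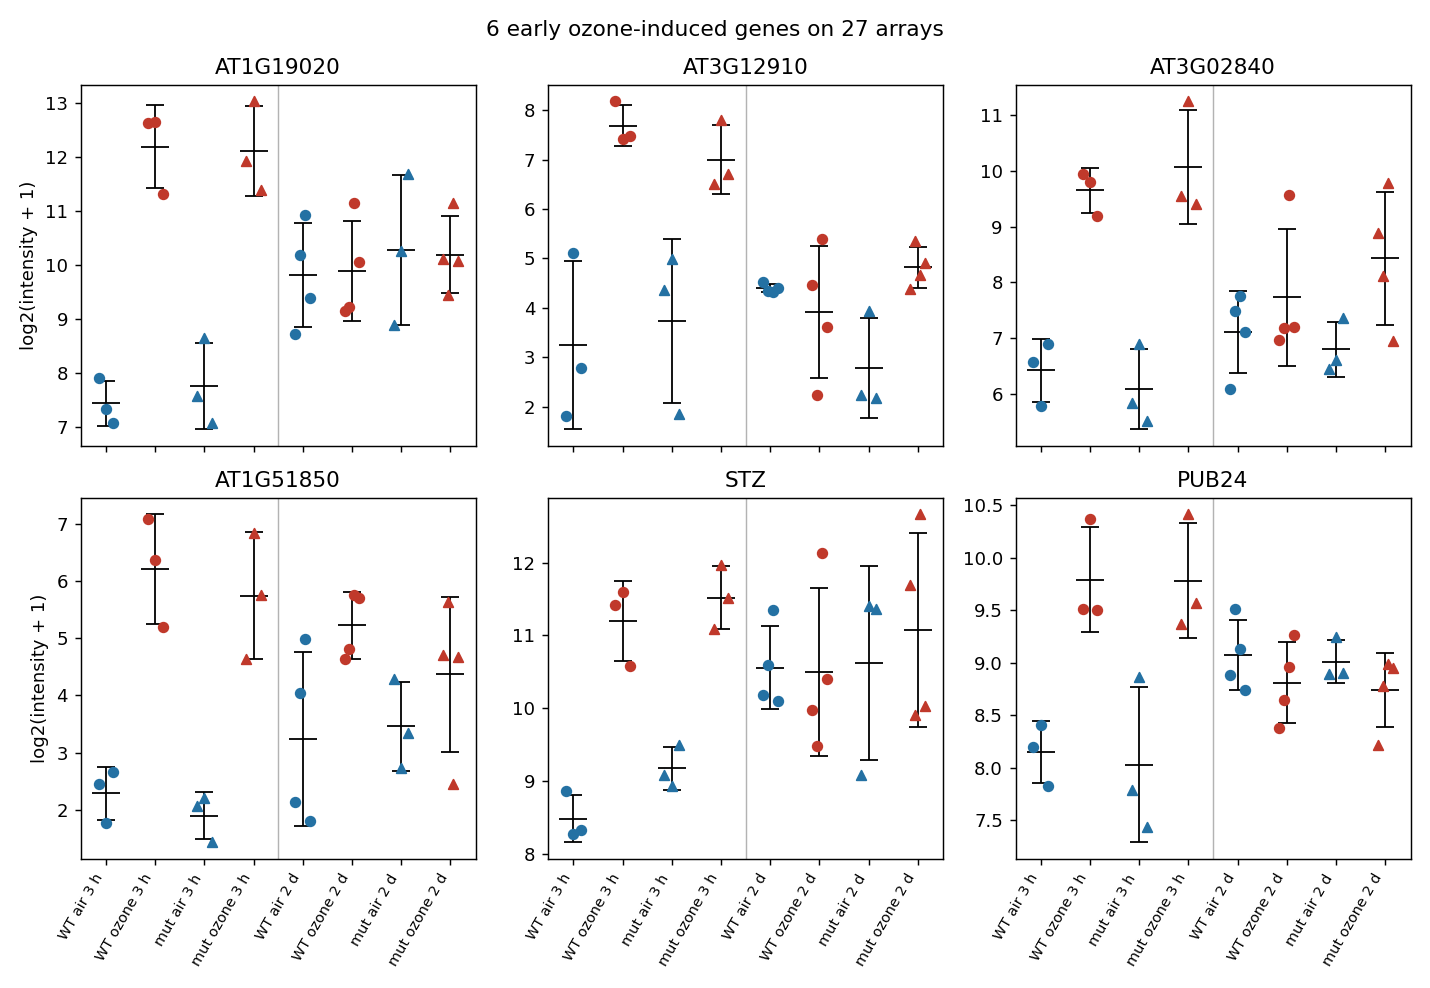
Each panel plots 1 gene as log2(intensity + 1) on the y axis against the 8 groups on the x axis, with circles for wild type, triangles for the mutant, red for ozone and blue for clean air; bars are the mean and SD. At 3 h red lies above blue in every panel, and at 2 d the colours overlap in all groups but those of AT3G12910 in the mutant.

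AT3G12910, the NAC-domain gene, was dim in clean air and had its highest levels in ozone at 3 h. In wild type at 3 h its intensities were 2.5, 33.8 and 5.9 in clean air and 289.6, 170.4 and 177.5 in ozone. In the mutant they were 19.7, 30.7 and 2.6 in clean air and 89.8, 222.5 and 102.9 in ozone. The clean-air arrays lie far below the array medians and scatter widely, with means of 3.24 ± 1.7 and 3.74 ± 1.66 (SD, n = 3 each), and the differences to ozone were 4.46 and 3.27. With pseudocount 64 these differences were 1.82 and 1.27, so the size for this dim gene rests on the scale.

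At 2 d AT3G12910 was dim in all wild-type arrays. Its intensities were 21.9, 19.2, 19 and 20.2 in clean air and 21.1, 3.7, 40.9 and 11.2 in ozone. The change of −0.47 ± 0.698 (SE), with a 95% interval of −1.92 to 0.98, did not pass (limma adjusted p = 0.759). This SE draws on the spread at both times, and the SD in wild-type clean air was 1.7 at 3 h and 0.0892 at 2 d. The mutant arrays at 2 d read 3.7, 14.4 and 3.5 in clean air and 19.8, 40.2, 24.2 and 28.8 in ozone. Here all 4 ozone arrays stood above all 3 clean-air arrays, as for 6.26% of all probe sets. The change of 2.04 ± 0.754, with an interval of 0.48 to 3.61, had adjusted p = 0.252 in limma and did not pass. The genotype by ozone interaction at 2 d was 2.51 ± 1.03 (interval 0.38 to 4.65, adjusted p = 1), the largest of the 6 in size. All the arrays in these 2 d groups are dim, and with pseudocount 64 the mutant change was 0.37.

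STZ, the zinc-finger repressor gene, was bright in ozone at both times, and in clean air at 2 d as well. At 3 h the wild-type intensities were 466.9, 308.8 and 321.6 in clean air and 2742, 3106.4 and 1531.5 in ozone, a difference of 2.71. The mutant had 543.7, 488.4 and 724.3 in clean air and 2185.8, 3971.2 and 2933 in ozone, a difference of 2.35. The lowest mutant clean-air array, at 488.4, stood just above the highest of wild type, at 466.9, and 3.2% of all probe sets were likewise higher without overlap. At 2 d clean air itself read 1166.2, 1543.6, 2607.2 and 1097.6 in wild type. All stood above the clean-air arrays of 3 h, as for 10.8% of all probe sets. The wild-type ozone arrays at 2 d read 1005.5, 715.3, 4487 and 1356.2, and the change was −0.06 ± 0.6 (limma adjusted p = 0.972; interval −1.3 to 1.19). The mutant at 2 d spanned 544.6 to 2708.6 in clean air and 960.4 to 6460.6 in ozone, with a change of 0.45 ± 0.648 (adjusted p = 0.85; interval −0.90 to 1.79).

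From 3 h to 2 d the mean of STZ in clean air thus went from 8.49 ± 0.328 to 10.56 ± 0.569 in wild type and from 9.18 ± 0.293 to 10.62 ± 1.33 in the mutant. In ozone it went from 11.2 to 10.5 and from 11.52 to 11.07. The 2 times differ by 2.07 and 1.45 in clean air and by −0.70 and −0.45 in ozone.

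AT1G51850, the receptor kinase gene, was close to the bottom of the range in clean air at 3 h and well above it in ozone. Its wild-type intensities were 4.5, 2.4 and 5.3 in clean air and 134.6, 80.9 and 35.5 in ozone. The mutant read 3.2, 3.6 and 1.7 in clean air and 23.8, 113.9 and 53 in ozone. The differences were 3.92 and 3.84 with pseudocount 1, and 1.06 and 0.87 with pseudocount 64.

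At 2 d the wild-type intensities of AT1G51850 were 3.4, 15.4, 30.7 and 2.5 in clean air and 23.8, 27.1, 52.9 and 51.2 in ozone, so that 1 clean-air array lay within the ozone arrays. The change was 1.98 ± 0.682 with an interval of 0.57 to 3.40 (limma unadjusted p = 0.00824, adjusted p = 0.101). Over the settings tried its adjusted p lay between 0.0538, without clean-air replicate 3, and 0.258, and its value between 0.42, with pseudocount 64, and 2.57. In the mutant the arrays read 18.4, 5.7 and 9.2 in clean air and 25.1, 48.5, 4.5 and 24.7 in ozone, a change of 0.91 ± 0.736 (adjusted p = 0.68; interval −0.62 to 2.44). The interaction of −1.07 ± 1 (adjusted p = 1) did not separate the genotypes.

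**Figure D2:**
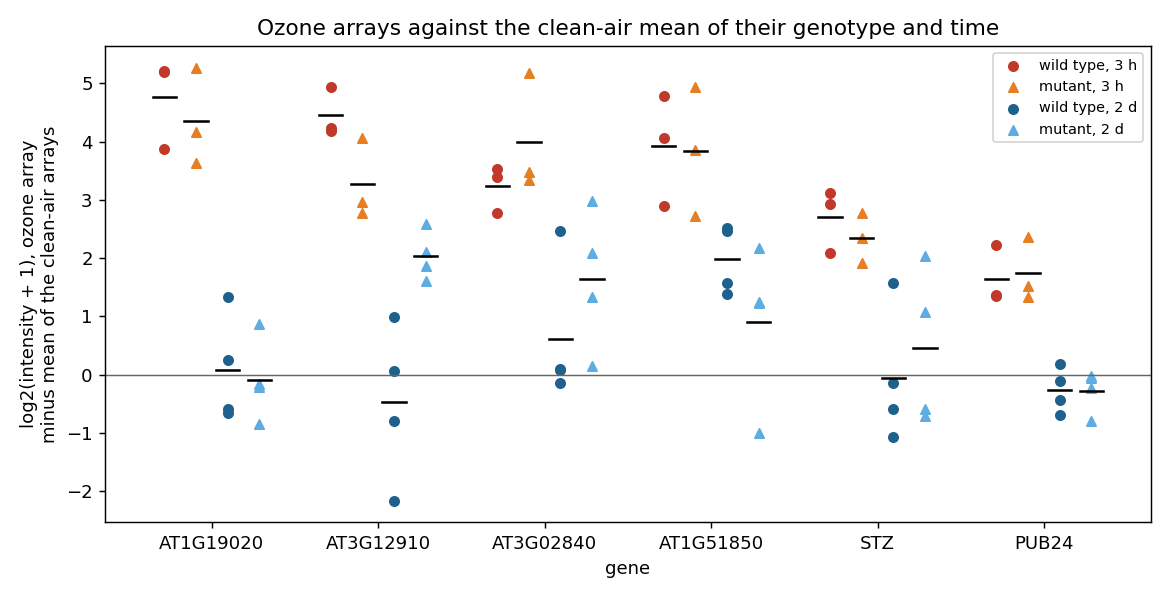
Each point is 1 ozone array as log2(intensity + 1) minus the mean of the clean-air arrays of its genotype and time (y axis) for each gene (x axis); black bars are group means and the line at 0 is the clean-air mean. All 3 h points lie above 0, while the 2 d group means of AT1G19020, STZ and PUB24 lie between −0.28 and 0.45.

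PUB24, the ubiquitin ligase gene, gave the smallest differences at 3 h. Its SD was 0.293 to 0.741 over the 3 h groups and 0.202 to 0.383 over the 2 d groups. At 3 h wild type read 292.6, 340.2 and 227.2 in clean air and 726.1, 1326.7 and 723.4 in ozone. The mutant read 220.2, 465.1 and 173.2 in clean air and 662.5, 1356.3 and 757.7 in ozone. Ozone stood higher by 1.65 in wild type and 1.75 in the mutant. At 2 d wild type read 470.6, 726, 559.5 and 427.3 in clean air and 331.3, 397.7, 497 and 611.2 in ozone, a change of −0.26 ± 0.303 (limma adjusted p = 0.684). The mutant read 472.5, 605.2 and 477.2 in clean air and 297.9, 439.1, 507.1 and 492.8 in ozone, a change of −0.28 ± 0.328 (adjusted p = 0.805). The intervals were −0.89 to 0.37 and −0.96 to 0.40. In wild type the clean-air mean went from 8.15 at 3 h to 9.07 at 2 d, and in the mutant from 8.03 to 9.01. The times did not overlap in either genotype, as for 10.8% and 9.18% of all probe sets.

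AT3G02840, the armadillo-repeat gene, ranged from 44.6 to 2428.4 over the arrays, both in the mutant at 3 h. In wild type at 3 h it read 94.8, 54.1 and 117.4 in clean air and 985.5, 895.2 and 583.3 in ozone, a difference of 3.23. In the mutant it read 56.3, 117.2 and 44.6 in clean air and 753.5, 2428.4 and 681.5 in ozone, a difference of 3.99. AT3G02840 and PUB24 were the 2 genes whose difference was the larger in the mutant. Wild type at 2 d read 66.6, 177.9, 215.7 and 137.1 in clean air and 123.4, 144.3, 756.6 and 146.2 in ozone. Replicate 3 alone stood high there, and the change of 0.62 ± 0.598 (limma adjusted p = 0.601; interval −0.62 to 1.86) became 0.01 without it. The mutant at 2 d read 85.8, 95.7 and 163.1 in clean air and 472.6, 278.1, 876.4 and 122.6 in ozone, with 3 of 4 ozone arrays above all of clean air. That change was 1.64 ± 0.646 with an interval of 0.30 to 2.98 (unadjusted p = 0.019, adjusted p = 0.29).

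AT1G19020, the gene of the small protein without an established biochemical role, had the largest difference at 3 h in both genotypes. Wild type read 237.4, 160.9 and 133.6 in clean air and 6315, 6396.7 and 2534 in ozone, and the mutant read 191, 398.1 and 132.9 in clean air and 3872.9, 8367.3 and 2685.7 in ozone. On the log2 scale the differences of 4.76 and 4.35 correspond to 27-fold and 20.4-fold. At 2 d wild type read 422.3, 1166, 1955.7 and 670.2 in clean air and 565.4, 597.3, 2254.8 and 1065.2 in ozone, a change of 0.08 ± 0.596 (limma adjusted p = 0.962; interval −1.16 to 1.32). The mutant read 474.4, 1225.9 and 3274.4 in clean air and 1108.6, 692.9, 2268 and 1071.4 in ozone, a change of −0.08 ± 0.644 (adjusted p = 0.979; interval −1.42 to 1.25). In both genotypes every ozone array of 2 d lay below every ozone array of 3 h. The same held for 15.2% of all probe sets in wild type and 12.1% in the mutant. Every clean-air array of 2 d lay above every clean-air array of 3 h, as for 10.8% and 9.18% of all probe sets.

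In ozone all 6 means were lower at 2 d than at 3 h in both genotypes, with differences of −0.70 for STZ to −3.77 for AT3G12910 in wild type and of −0.45 to −2.18, for the same genes, in the mutant. AT1G19020, AT3G12910 and PUB24 were lower without overlap in both genotypes, as were 15.2% of all probe sets in wild type and 12.1% in the mutant. In clean air all 6 means were higher at 2 d than at 3 h in wild type, by 0.69 to 2.37, and 5 of 6 in the mutant, where that of AT3G12910 was −0.95. Arrays did not overlap for AT1G19020, STZ and PUB24 in wild type and for AT1G19020, AT1G51850 and PUB24 in the mutant, as for 10.8% and 9.18% of all probe sets. The median shift over all probe sets from 3 h to 2 d was −0.10 and −0.06 in clean air and −0.20 and −0.08 in ozone. Since low clean-air and high ozone levels at 3 h helped to choose the genes, these differences between times are values with no test. Time of day, time in the chamber and plant age move with sampling time and cannot be told apart from it.

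For ozone against clean air at 2 d, 0 of the 6 genes passed in wild type, where 3.45% of all probe sets passed, and 0 in the mutant, where 0.189% passed. At unadjusted p under 0.05 in limma there was 1 of 6 in wild type, AT1G51850, beside 20.8% of all probe sets. There were 2 of 6 in the mutant, AT3G12910 and AT3G02840, beside 12.3%. Over the 6, the median change was 0.01 for wild type and 0.68 for the mutant, against −0.09 and −0.01 over all probe sets.

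Between the genotypes no difference passed at 2 d. Mutant against wild type gave 0 of 6 in clean air, where 0.0132% of all probe sets passed in limma, and 0 of 6 in ozone, where 0.00879% passed. The interaction gave 0 of 6 and 0% of all probe sets. At unadjusted p under 0.05 these 3 contrasts had 1, 0 and 1 of the 6, AT3G12910 in both cases, beside 2.69%, 3.46% and 2.84% of all probe sets. Its mutant clean-air arrays at 2 d lay below all wild-type ones, as for 2.13% of all probe sets, with a change of −1.61 ± 0.754 (adjusted p = 1; interval −3.18 to −0.05). In ozone the change of AT3G12910 was 0.90 ± 0.698 (adjusted p = 1; interval −0.55 to 2.35). For the other 5 genes the changes ran from −0.31 to 0.47 in clean air and from −0.86 to 0.71 in ozone. Their standard errors of 0.303 to 0.736 leave room for differences: the interval for STZ in ozone was −0.67 to 1.82 and that for PUB24 −0.70 to 0.56. At 3 h the mutant minus wild-type difference in ozone lay between −0.69 for AT3G12910 and 0.43 for AT3G02840, and all 6 genes overlapped between genotypes, while 2.87% of all probe sets were higher and 6.65% lower without overlap. No test was made there, because the same arrays chose the genes.

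The same arrays tended to be high or low for several of the 6 genes. In the mutant in ozone at 3 h, replicate 2 was the highest array for 6 of 6, while it was the highest for 37.4% of all probe sets. Replicate 2 was also the highest for 5 of 6 in mutant clean air at 3 h (35.5% of all probe sets). The lowest array there was replicate 3 for 5 of 6 (29.6%), but in mutant ozone it was replicate 1 for 4 of 6 (31.5%). In wild-type clean air at 3 h each replicate was the highest for 2 of 6. The main fit took no account of replicate number. Wild-type ozone replicate 3 at 3 h was the lowest for 5 of 6 and the highest for 0, against 34.2% and 42.4% of all probe sets. At 2 d replicate 3 was the highest for 5 of 6 in wild-type ozone (22.8% of all probe sets), for 4 of 6 in mutant ozone (22.5%) and for 4 of 6 in wild-type clean air (20.6%). Part of the scatter at 2 d was thus shared, as for STZ and AT3G02840, both high in replicate 3 of both ozone groups. Not all genes moved with them. In mutant ozone replicate 3 the deviation from the group mean was −1.91 for AT1G51850 and −0.17 for AT3G12910.

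**Figure D3:**
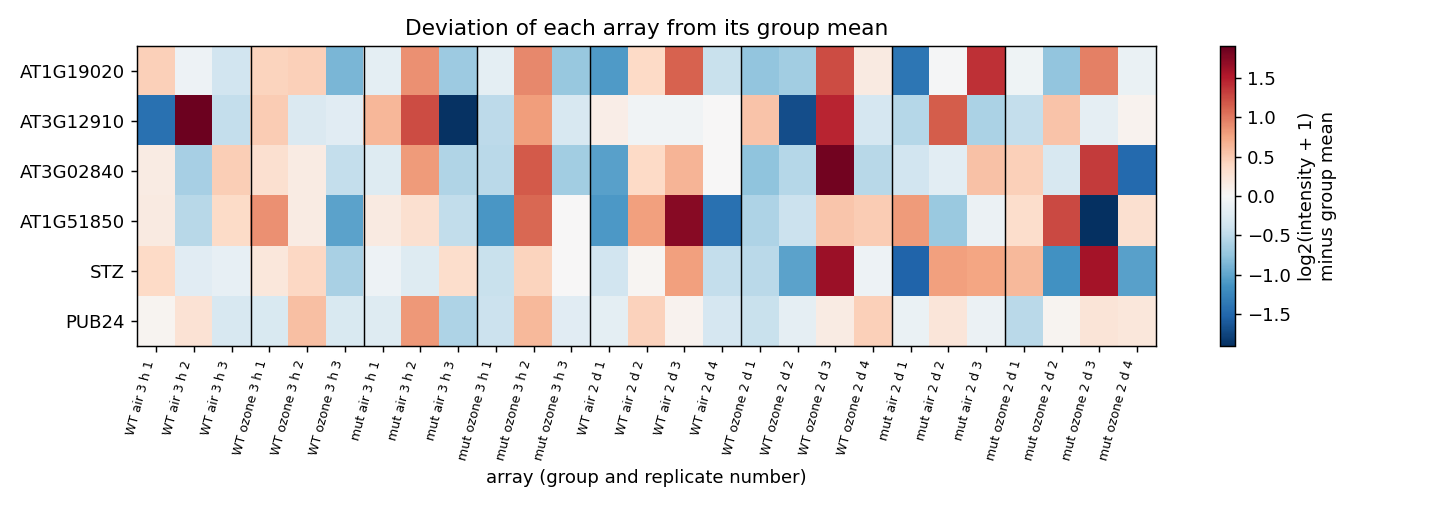
The colour shows log2(intensity + 1) minus the group mean for each gene (rows) on each array (columns, by group and replicate number), red above and blue below the group mean; black lines part the groups. Columns of mostly 1 colour are arrays on which several genes moved together, such as replicate 2 of the mutant in ozone at 3 h, above its group mean for all 6.

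Over the 8 group means the 15 pairs of these genes had Pearson correlations from 0.66, for AT3G12910 with STZ, to 0.97, for AT1G19020 with PUB24. These are descriptions, and the choice of genes high in ozone at 3 h raises them. Among 6937 other probe sets of 1 gene whose group means spanned at least 1, the profiles most like the mean of the 6 were those of AT1G76600 (r = 0.992), AT3G54150 (0.988), AT2G46620 (0.984), AT3G04220 (0.984), AT1G32120 (0.981) and AT3G46930 (0.981). AT3G54150 had the widest swing of these, with group means of 6.5 and 9.44 in clean air and ozone at 3 h and 8.09 and 8 at 2 d in wild type. In the mutant the same means were 6.36 and 9.68 at 3 h and 7.78 and 7.99 at 2 d. Like STZ and AT1G19020, it stood higher in clean air at 2 d than at 3 h, which its choice by likeness favours.

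Gene by gene, AT1G28190 was most like both AT1G19020 (r = 0.993) and PUB24 (r = 0.988). BIK1, a receptor-associated kinase gene of plant immunity, was most like the receptor kinase gene AT1G51850 (r = 0.993). BIK1 had group means of 8.5 in clean air and 9.65 in ozone at 3 h, and of 8.77 and 9.49 at 2 d, in wild type. The nearest profile to AT3G12910 was that of AT5G19930 (r = 0.974), to AT3G02840 that of AT2G32140 (0.987) and to STZ that of AT3G13430 (0.98). AT2G32140 shared the larger mutant difference of AT3G02840, with 3.6 in the mutant and 2.15 in wild type at 3 h, and 1.32 and 0.09 at 2 d. It was picked for its likeness over these same group means, so the shared difference is no separate observation.

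Other stress regulators, among them relatives of the 6 genes, were taken from lists. Of these, 68 genes had a probe set of their own, and the 6 are not counted among them. These were 33 of 43 receptor kinases of the AT1G51850 type, 17 of 31 U-box ligases, 7 of 16 C2H2 zinc-finger genes, 7 of 30 AP2/ERF factors and 4 of 29 genes of MAP kinase and calcium signalling. The AP2/ERF factors and the signalling genes are not of the families of the 6. None of 32 stress NAC genes had a probe set named as 1 gene here. In ozone at 3 h, 2 of 68 rose and 0 fell past the threshold in wild type, where 1.2% of all probe sets rose past it. In the mutant 1 of 68 rose and 0 fell past the threshold, where 0.615% of all probe sets rose past it. At unadjusted p under 0.05 there were 18 and 13, beside 15.4% and 10.2% of all probe sets. Their median changes were 0.20 and 0.17. At 2 d 0 of 68 passed in limma in either genotype, where 3.45% and 0.189% of all probe sets passed. At unadjusted p under 0.05 there were 11 and 10 of 68, beside 20.8% and 12.3% of all probe sets, and the medians were −0.01 in both. The shares past the threshold at 3 h rest on 2 genes in wild type and 1 in the mutant.

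AT1G51850 lies in a row of receptor kinase genes. From AT1G51790 to AT1G51910 the reference order holds 15 protein-coding genes, of which 11 were measured, and 9 of these were other receptor kinases on the list. AT1G51790, at the start of the row, rose at 3 h by 1.64 ± 0.341 in wild type, from 7.66 to 9.31 (limma adjusted p = 0.0169), and by 1.5 ± 0.341 in the mutant (adjusted p = 0.0422). At 2 d its changes were −0.07 ± 0.295 and −0.81 ± 0.319, neither past the threshold. The wild-type call was lost without clean-air replicates 1 and 3 and ozone replicates 1 and 2, with adjusted p of 0.0626 to 0.0941. The mutant call was lost with centred arrays (0.0782), quantile normalization (0.0566), separate fits (0.0685) and without 5 of the 6 arrays in turn, clean-air replicate 2 being the exception (0.0707 to 0.256).

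The 2 measured genes next after AT1G51850 in the row had large changes that did not pass, and they are named here because of their values. AT1G51890 stood higher in ozone by 2.74 ± 0.717 in wild type and 2.97 ± 0.717 in the mutant at 3 h (adjusted p = 0.0567 and 0.0588). At 2 d it stood higher by 1.81 ± 0.621 and 2.05 ± 0.671 (adjusted p = 0.102 and 0.19). AT1G51860 had changes of 2.13 ± 1.5 and 2.24 ± 1.5 at 3 h and of 4.00 ± 1.3 in wild type and 1.45 ± 1.41 in the mutant at 2 d. The adjusted p-values were 0.542 and 0.689 at 3 h and 0.0839 and 0.747 at 2 d, and the wild-type clean-air mean at 2 d was 2.29, near the bottom of the range. The other receptor kinases of the row, AT1G51805 to AT1G51840 and AT1G51910, had changes of −0.29 to 1.32 at 3 h.

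**Figure D4:**
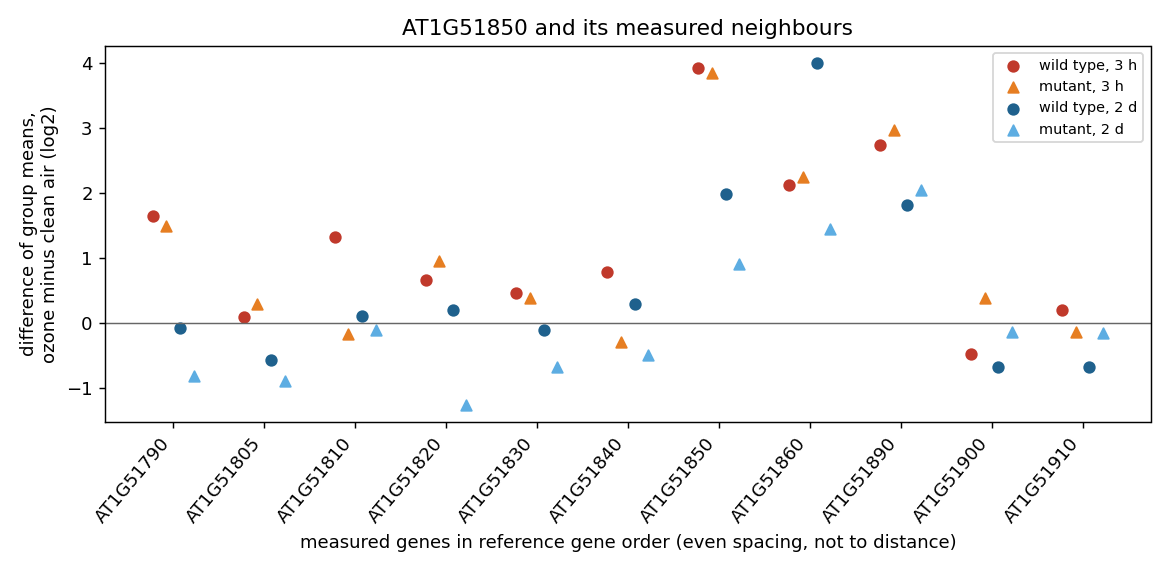
The y axis gives the difference of group means, ozone minus clean air, in log2(intensity + 1), for AT1G51850 and its measured neighbours in reference gene order (x axis, not to distance), by genotype and time. AT1G51850, AT1G51860 and AT1G51890 stand between 0.91 and 4.00 in all 4 comparisons, and AT1G51790 is high at 3 h only.

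Of the 17 other U-box ligase genes, 14 had changes above 0 at 3 h in wild type and 13 in the mutant, with medians of 0.64 and 0.5. At unadjusted p under 0.05 in limma there were 7 and 4, beside 15.4% and 10.2% of all probe sets. AT5G61560 was the 1 past the threshold in wild type, where 1.2% of all probe sets rose past it. Its change was 1.79 ± 0.426, from 6.33 to 8.12 (limma adjusted p = 0.0351). This call was lost with centred arrays (adjusted p = 0.0508), with separate fits (0.142) and when clean-air replicate 2 or 3, or ozone replicate 1 or 2, was left out (0.087 to 0.183). Its change in the mutant was 1.61 ± 0.426 (adjusted p = 0.0859). The closest relatives of PUB24 did not pass: PUB23 gave 1.74 ± 0.541 in wild type and 1.1 ± 0.541 in the mutant, and PUB22 1.49 ± 0.583 and 0.92 ± 0.583 (adjusted p from 0.114 to 0.663). PUB22 was dim, at 10.9, 12.3 and 18.1 in clean air and 49.5, 41.3 and 30.3 in ozone in wild type. At 2 d the changes of both ran from 0.01 to 0.18. PUB22, like PUB24, stood higher in clean air at 2 d, with wild-type intensities of 36.3, 88.1, 104 and 116.2.

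The 4 measured calcium genes all encode calmodulin-like proteins, which bind calcium. At 3 h 0 of 4 passed in either genotype, where 1.2% and 0.615% of all probe sets rose past the threshold. At unadjusted p under 0.05 there were 3 of 4 at 3 h in each, beside 15.4% and 10.2% of all probe sets, and these genes were picked with their values known. CML37 had the largest differences, 3.33 ± 0.919 in wild type and 3.59 ± 0.919 in the mutant (limma adjusted p = 0.0716 and 0.0743). Its ozone intensities at 3 h were 739.9, 738.8 and 165.6 in wild type and 925.3, 2712.7 and 200.8 in the mutant, with replicate 3 lowest in wild type, as for 5 of the 6 genes, and replicate 2 highest in the mutant, as for all 6. AT3G01830 gave 2.82 ± 1.06 and 3.42 ± 1.06, CML38 1.62 ± 0.998 and 2.83 ± 0.998, and the dim AT1G76640 1.56 ± 0.521 and −0.05 ± 0.521. At 2 d CML37 stood higher in ozone by 1.71 ± 0.796 and 2.1 ± 0.86, which did not pass (adjusted p = 0.226 and 0.313). Among the zinc-finger relatives of STZ and the AP2/ERF genes, 0 of 7 and 0 of 7 passed in limma in any of the 4 ozone comparisons, with at most 2 of 7 at unadjusted p under 0.05. At 2 d 3.45% and 0.189% of all probe sets passed in wild type and mutant. The shares at unadjusted p under 0.05 were 20.8% and 12.3%. At such shares 0 of 7 says little about either family.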

How the data were processed

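The values deposited by the authors are linear intensities of 22746 probe sets on 27 arrays. Per the submitters' processing notes, Expression Console and RMA were used; their settings are not given in the sources used here. RMA usually writes log2 values, and these are linear. The lowest value on any array was 0, and the array maxima ran from 22902.4 to 39907.3. Whether RMA gave these values was not tested. Intensities were taken to log2(intensity + 1) without further normalization or filter. In R 4.3.3, limma 3.58.1 fitted 8 group means over the 27 arrays; the moderated tests had 19 residual degrees of freedom and a prior of 2.53. Within a contrast the 2-sided p-values of all probe sets were adjusted together (Benjamini-Hochberg), and an adjusted p under 0.05 passed. The procedure was tested on simulated data. Alternatives were pseudocounts 16 and 64, a filter at a mean of 6, centred or quantile-normalized arrays, separate fits per time, array weights, trend and robust moderation, the replicate number as a block and leaving out each array. Precision is limited by how many arrays a group has.

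Genes were named from the platform annotation, updated through the TAIR10.1 gene table, used for names and gene order only. Of the probe sets, 13513 had 1 gene, 503 several and 8730 were not listed. The probe set with the highest mean stood for a gene with several. The 6 genes and the lists were chosen with earlier results of these data known. Named genes were the 6, the 6 probe sets most like their mean and the 1 most like each, and up to 2 listed genes past the threshold per list and contrast; AT1G51860, AT1G51890, PUB22, PUB23 and the 4 calmodulin-like genes fall outside this rule; their values were known when they were picked. Same-numbered arrays of the groups compared had correlated deviations of −0.0866 to 0.276; all were above 0.1 only between genotypes in ozone at 2 d (0.102 to 0.17), where the replicate block changed no call.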

Additional observations from a re-analysis of the deposited data

Results flagged for a closer look

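AT3G02840 in wild-type ozone at 2 d had 1 array apart from the other 3: replicate 3 at 9.57 on the log2(intensity + 1) scale, an intensity of 756.6 against 123.4 to 146.2. It was the 1 case found in 18 groups of 4 arrays, where chance marks about 1 in 20.

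PUB24 in the mutant had all 3 ozone arrays above the clean-air mean at 3 h and all 4 below it at 2 d, with a 2 d change of −0.28. The difference between the times was not tested, since the 3 h arrays chose the gene.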

How the results depend on the processing

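In 530 runs over the 6 genes, the 5 contrasts at 2 d and all settings, 0 passed the threshold. The count of 6 genes past the threshold was 0 throughout, with the replicate block too. Signs of values near 0 turned: with array weights AT1G19020 in wild type was −0.04, the mutant against wild type in clean air was −0.09 for AT1G51850 and the interaction of PUB24 was 0.03. AT1G51850 in that clean-air contrast was −0.02 with pseudocounts 16 and 64, STZ was −0.11 with the replicate block, and PUB24 was 0.00 with centred arrays. Leaving out 1 array gave these ranges. For ozone at 2 d they were −0.33 to 0.46 in wild type and −0.78 to 0.62 in the mutant for AT1G19020, −0.96 to 0.09 in wild type for AT3G12910, and −0.60 to 0.28 and −0.32 to 0.84 for STZ. For mutant against wild type in clean air they were −0.23 to 1.16 for AT1G19020, −0.26 to 0.80 for AT1G51850, −0.33 to 0.83 for STZ and −0.17 to 0.09 for PUB24. In ozone they were −0.02 to 0.72 for AT1G19020 and −0.22 to 0.10 for PUB24, and for the interaction −0.86 to 0.53 for AT1G19020, −0.26 to 1.05 for STZ and −0.17 to 0.15 for PUB24.

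The median 3 h difference of the 6 was 2.84 and 2.17 in wild type and 2.26 and 1.88 in the mutant with pseudocounts 16 and 64, which shrink dim genes by construction. It was 2.97 in wild type over the 4 genes with a mean of 6 or more, since the filter drops AT3G12910 and AT1G51850. Leaving out 1 array gave 3.28 to 3.94 and 3.06 to 3.94.

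The count of the 68 listed regulators past the threshold was less stable, and the cause was not tested. In wild type at 3 h it was 4 with the filter (32 genes left), 1 with centred arrays, 1 with separate fits, 18 with array weights, 6 with the replicate block and 0 to 9 without 1 array, with 0 without ozone replicate 1 or 2 and 9 without ozone replicate 3. In the mutant at 3 h it was 4 with pseudocount 16, 6 with the filter, 0 with centred arrays, quantile normalization and separate fits, 8 with array weights, 4 with trend and robust moderation, 6 with the replicate block and 0 to 6 without 1 array, with 6 without clean-air replicate 2, 3 without ozone replicate 3 and 0 without any other. Separate fits gave 3 and 2 at 2 d (wild type, mutant), and array weights 1 and 2. The count over all 22746 probe sets moved too. For wild type at 3 h the main fit had 274 up and 68 down. In either direction there were 3329 with array weights, 1230 without ozone replicate 3, and 59 and 73 without ozone replicates 1 and 2. For the mutant at 3 h the main fit had 140 up and 8 down, against 844 with array weights and 52 with separate fits. At 2 d separate fits gave 824 and 117, and array weights 2191 and 424.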
